A study of Rattus norvegicus with 23 samples.

Results

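Osteopontin (Spp1), periostin (Postn), Sparc, fibronectin (Fn1), the gelatinase Mmp2, its tissue inhibitor Timp1 and lysyl oxidase (Lox) were measured in the heart apex of rats after kidney transplantation. These 7 genes were taken by Ensembl identifier from the deposited count files, which list 26405 genes, and all 7 identifiers were present. The files carry identifiers without names, so the symbols are those paired with the identifiers when the genes were chosen, and no table at hand could be used to check the pairing: Spp1 is ENSRNOG00000043451, Postn ENSRNOG00000012660, Sparc ENSRNOG00000012840, Fn1 ENSRNOG00000014288, Mmp2 ENSRNOG00000016695, Timp1 ENSRNOG00000010208 and Lox ENSRNOG00000014426.

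Kidneys from healthy or diseased donors were placed in healthy or diseased recipients, in 23 inbred Lewis rats with 1 RNA-seq library each. HD-HR (n = 6) were healthy recipients of a healthy kidney, CD-HR (n = 6) healthy recipients of a kidney from a rat with chronic kidney disease (CKD), HD-CR (n = 5) CKD recipients of a healthy kidney, and CD-CR (n = 6) CKD recipients of a CKD kidney. CKD was made by coagulating branches of both renal arteries, followed by the nitric oxide synthase inhibitor L-NNA at 200 mg/L in the water and 6% NaCl in the chow until proteinuria reached 200 mg per 24 h, and rats were included at 100 mg per 24 h off both agents. A recipient with CKD had therefore itself been exposed to renal ablation, L-NNA and salt before surgery, whereas a healthy recipient of a CKD kidney had not, and the effect of these agents on the heart cannot be told apart from that of the kidney disease. All 4 groups shared an orthotopic left kidney isograft, removal of the right native kidney after 10 to 14 days, and tissue collection 6 weeks after transplantation. No source used here gives age or sex.

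These genes make the extracellular matrix or reshape it. Osteopontin, periostin and Sparc are matricellular proteins, secreted into the matrix to signal to cells and to guide collagen assembly more than to bear load; fibronectin is a scaffold on which other matrix proteins assemble. Mmp2 degrades basement membrane and denatured collagen, Timp1 inhibits matrix metalloproteinases, and lysyl oxidase crosslinks collagen and elastin. In the adult heart periostin and osteopontin are low and are known to be switched on in activated fibroblasts and, for osteopontin, in macrophages after injury or pressure overload.

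The sequence before the transcript start was at hand in RefSeq (GRCr8) for 4 of the 7 genes, Spp1, Postn, Timp1 and Sparc. It is shown for all 4, which are also the genes with the smallest p in the averaged recipient comparison below. Each line gives the 250 bases before the start used by the table, 5′ to 3′, with matches to the searched motifs in capitals.
Spp1, chr14:5619805-5620054, - strand: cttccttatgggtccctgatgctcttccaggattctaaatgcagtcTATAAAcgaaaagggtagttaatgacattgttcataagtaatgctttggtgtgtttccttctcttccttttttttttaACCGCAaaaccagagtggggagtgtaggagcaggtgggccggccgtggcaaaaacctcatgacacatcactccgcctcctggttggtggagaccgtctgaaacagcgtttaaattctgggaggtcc
Postn, chr2:140677811-140678060, + strand: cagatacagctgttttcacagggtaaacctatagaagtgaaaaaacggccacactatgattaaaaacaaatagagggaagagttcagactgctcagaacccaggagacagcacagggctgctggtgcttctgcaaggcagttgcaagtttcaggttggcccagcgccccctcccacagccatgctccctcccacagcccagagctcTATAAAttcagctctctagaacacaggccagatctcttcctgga
Timp1, chrX:3771123-3771372, - strand: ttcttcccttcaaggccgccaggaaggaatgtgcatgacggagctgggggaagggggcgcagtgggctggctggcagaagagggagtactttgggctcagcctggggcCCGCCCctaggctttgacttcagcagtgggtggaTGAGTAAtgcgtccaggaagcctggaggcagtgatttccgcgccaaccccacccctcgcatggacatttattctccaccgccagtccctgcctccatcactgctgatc
Sparc, chr10:40038817-40039066, - strand: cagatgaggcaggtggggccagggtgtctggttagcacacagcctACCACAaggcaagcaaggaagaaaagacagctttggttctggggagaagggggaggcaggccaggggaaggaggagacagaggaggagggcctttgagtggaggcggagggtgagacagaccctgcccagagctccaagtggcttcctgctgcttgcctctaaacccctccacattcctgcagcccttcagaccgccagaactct
The motifs were searched on both strands, after the sequences had been seen, and none of them overlaps another in these windows: the TATA box TATAAA (in 12.9% of 33469 windows of this length), CCAAT (34%), the AP-1 motif TGANTCA (6.34%) and its variant TGAGTAA (2.38%), the RUNX core as TGTGGT (14.5%) or TGCGGT (5.02%), and the GC box GGGCGG (30.5%). Postn held TATAAA 44 to 39 bases before the start. Spp1 held TATAAA 204 to 199 bases before the start and TGCGGT, on the opposite strand, 126 to 121 bases before it. Timp1 held TGAGTAA 108 to 102 bases before the start and GGGCGG, on the opposite strand, 142 to 137 bases before it. Sparc held TGTGGT, on the opposite strand, 205 to 200 bases before the start. These matches describe the letters only; the study measured no binding.

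Each of the 7 genes had counts in every heart, though few for Spp1 and Lox in some. Libraries held 7391929 to 12444980 counts in genes, and 1 count was worth 0.0734 to 0.166 CPM (the per-million read count, with library totals scaled by the trimmed mean of M values). All 7 genes passed the filter on low counts that left 11568 genes. Spp1 and Lox were sparse in some hearts, with 1 to 8 counts of Spp1 in the HD-HR libraries and 2 to 64 counts of Lox over all 23, whereas Sparc had at least 2783. Transcript lengths of the authors' annotation were not at hand, so CPM levels are compared between groups for 1 gene at a time and not between genes. Differences were tested with edgeR's quasi-likelihood test in 1 fit of all 23 libraries, and a gene was called at a Benjamini-Hochberg adjusted p under 0.05 over all 11568 genes. In bulk tissue a change in the number of cells of a type and a change in RNA per cell cannot be told apart.

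Recipient disease came with more Spp1 and more Timp1 RNA in the heart. Averaged over both kinds of donor kidney, 2 of the 7 genes were called, Spp1 and Timp1, both higher in CKD recipients, and Postn, Fn1, Sparc, Mmp2 and Lox did not pass. Over all genes 12.8% were called in this comparison. The fitted log2 fold change was positive for 4 of the 7 (Spp1, Postn, Timp1 and Fn1) and negative for 3 (Sparc, Mmp2 and Lox), with a median of 0.29 against -0.01 over all genes. Within a single kind of donor kidney none of the 7 was called: 0.614% of all genes were called for HD-CR against HD-HR, where the smallest adjusted p among the 7 was 0.0953, and 1.56% for CD-CR against CD-HR, where it was 0.216. Unadjusted p was under 0.05 for 3 of the 7 in the former (18.1% of all genes) and for 2 in the latter (17.8%).

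**Figure D1:**
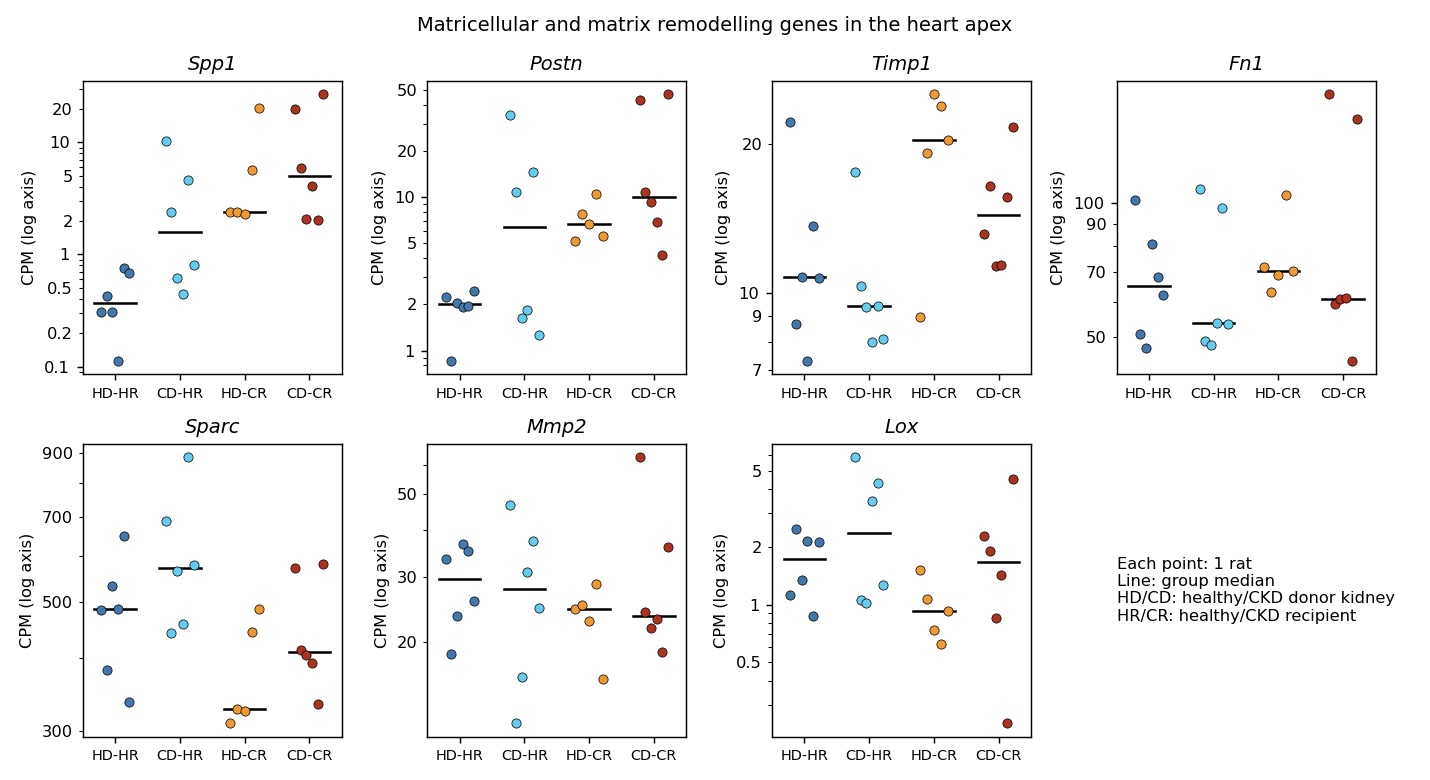
Level of each gene in the heart apex by group, in CPM on log axes that differ between panels; each point is 1 rat and the line is the group median. Spp1 and Postn of all HD-CR and CD-CR rats lie above the HD-HR rats, while CD-HR spans both ranges.

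Spp1 encodes osteopontin, a secreted phosphoprotein bound by integrins and CD44. HD-HR hearts had 0.113 to 0.765 CPM (median 0.369) and CD-HR hearts 0.440 to 10.4 (median 1.60). The 5 HD-CR hearts had 2.399, 2.390, 2.309, 5.69 and 20.2 CPM, and CD-CR hearts 2.04 to 26.9 (median 4.99). The medians thus ran in the order HD-HR, CD-HR, HD-CR, CD-CR, the HD-HR range lay below both CKD recipient ranges, and the other neighbours in this order overlapped. Group means were 0.433 ± 0.247 (SD, n = 6), 3.21 ± 3.86 (n = 6), 6.60 ± 7.74 (n = 5) and 10.1 ± 10.5 (n = 6), so that the SD exceeded the mean in the last 3 groups. Averaged over donors Spp1 rose 6.72-fold in CKD recipients (log2 2.75 ± 0.67 SE, adjusted p = 0.014 by edgeR), and it stayed called without each of the 23 libraries in turn, at log2 2.24 to 3.26 (adjusted p 0.00403 to 0.0366). With the 3 libraries farthest from the centre on the first 2 principal components of all genes left out together (CD-CR1, HD-CR4 and HD-HR1, a setting chosen after seeing the data), the log2 fold change was 2.59 and the adjusted p 0.0567. With a healthy donor kidney the difference was log2 3.83 ± 1.07 (adjusted p = 0.0953), which passed in a fit of those 2 groups alone (3.84, adjusted p = 0.03) and by DESeq2 (3.94, adjusted p = 0.00216); with a CKD donor kidney it was 1.67 ± 0.79 (adjusted p = 0.276).

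Postn encodes periostin, a secreted partner of collagen and of integrins. It was low and even in HD-HR, at 0.858 to 2.46 CPM (median 2.01), and in CD-HR it ran from 1.27 to 34.3 (median 6.36). The HD-CR hearts had 5.15, 7.83, 6.74, 10.5 and 5.58 CPM, and CD-CR hearts 4.20 to 47.0 (median 10.1). Every CKD recipient therefore stood above every HD-HR rat, while CD-HR overlapped all 3 other groups. The HD-HR mean was 1.92 ± 0.555 CPM (SD, n = 6) and the HD-CR mean 7.15 ± 2.12 (n = 5), whereas the groups with a CKD kidney were wide, at 10.8 ± 12.8 for CD-HR (n = 6) and 20.2 ± 19.3 for CD-CR (n = 6). The averaged recipient difference, log2 1.41 ± 0.54, did not pass in edgeR (adjusted p = 0.0903). It passed by DESeq2 (1.41, adjusted p = 0.0394), by limma-voom (1.70, adjusted p = 0.0463), and in edgeR without CD-HR1 (1.87, adjusted p = 0.0197). It did not pass without any other single library, with adjusted p up to 0.156 (without HD-CR4) and the smallest value, 1.19, without CD-CR6, nor with no filter on low counts (adjusted p = 0.133) or without the 3 libraries that stand apart (1.17, adjusted p = 0.25). Between HD-CR and HD-HR the difference was log2 1.90 ± 0.84 (adjusted p = 0.237) in the fit of 4 groups, and 1.90 ± 0.24 (adjusted p = 0.00073) in a fit of those 2 groups alone, whose own spread is smaller.

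Spp1 and Postn were the 2 of 7 genes whose HD-CR and HD-HR ranges did not overlap, where 3.59% of all genes had ranges apart in either direction, and also the 2 whose CD-CR and HD-HR ranges did not overlap, against 2.9% of all genes. Between CD-CR and CD-HR the ranges of all 7 overlapped, against 1.18% of genes with ranges apart. The HD-HR rats enter both of the former comparisons.

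Sparc, a matricellular protein that binds collagen and aids its deposition, had its lowest medians in CKD recipients. CPM ran from 336.2 to 647.4 in HD-HR (median 485.8) and from 442.6 to 886.0 in CD-HR (median 572.6). The HD-CR hearts had 309.3, 328.1, 325.2, 444.0 and 486.7 CPM and the CD-CR hearts 333.9 to 579.8 (median 409.4), so that all neighbouring ranges overlapped. The averaged recipient difference was log2 -0.38 ± 0.13 and just missed the threshold (adjusted p = 0.0536 by edgeR). It passed by DESeq2 (-0.37, adjusted p = 0.0391), with a covariate for the share of counts held by the top 10 genes (-0.40, adjusted p = 0.0461), and without CD-CR6, CD-HR2, HD-CR5 or HD-HR6 (adjusted p 0.0319 to 0.043). It missed without each of the other 19 libraries, with adjusted p up to 0.0961 and log2 -0.31 without CD-HR5, the library with the most Sparc and the highest ratio of non-unique alignments to counted reads (10.7, against at most 3.67 in the others). Across the 23 libraries log2 Sparc also had a Pearson r of 0.61 with the log2 ratio of non-unique alignments to counted reads and of -0.53 with log2 library total; these are values beside the result, and their part in it was not tested.

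Fn1, which encodes fibronectin, differed little between the group centres. Its medians were 65.3 CPM in HD-HR, 53.7 in CD-HR and 61.0 in CD-CR, and the HD-CR hearts had 71.8, 63.0, 69.0, 104.2 and 70.3 CPM. The ranges were 47.3 to 101.7 CPM in HD-HR, 48.0 to 107.8 in CD-HR and 44.3 to 175.6 in CD-CR, where CD-CR1 (175.6) and CD-CR6 (154.4) stood above the other 4 rats (at most 61.2). The averaged recipient difference was log2 0.29 ± 0.23 (adjusted p = 0.417 by edgeR), with a 95% interval of -0.16 to 0.74.

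Of the protease Mmp2 and the inhibitor Timp1, the inhibitor was the one called. Timp1 had 7.32 to 22.1 CPM in HD-HR (median 10.8) and 7.998 to 17.5 in CD-HR (median 9.42). It had 8.97, 19.1, 25.1, 23.8 and 20.3 CPM in the HD-CR hearts and 11.3 to 21.6 in CD-CR (median 14.4). Of the 5 HD-CR hearts, 4 lay above every CD-HR heart, and HD-HR1, at 22.1 CPM, was the highest healthy recipient. Averaged over donors Timp1 rose 1.50-fold in CKD recipients (log2 0.59 ± 0.19, adjusted p = 0.0426 by edgeR). The call was close to the threshold: it held without CD-CR3, CD-CR4, CD-HR1, HD-CR1 or HD-HR1, and was lost without any other of the 23 libraries (18 in all, adjusted p 0.0503 to 0.0858), while the log2 fold change stayed between 0.52 and 0.71 throughout. It was also lost with the replicate number as a block (0.65, adjusted p = 0.0518), with no filter on low counts (adjusted p = 0.0783) and with a covariate for the share of counts held by the top 10 genes (adjusted p = 0.0612). DESeq2 (adjusted p = 0.0193) and limma-voom (adjusted p = 0.0371) called it.

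Mmp2 had medians of 29.6 CPM in HD-HR, 27.8 in CD-HR and 23.6 in CD-CR, with ranges of 18.6 to 36.8, 12.1 to 46.9 and 18.8 to 63.1. The HD-CR hearts had 24.5, 25.2, 22.8, 28.7 and 15.9 CPM, inside the range of the CD-HR group. The averaged recipient difference was log2 -0.07 ± 0.22 (adjusted p = 0.863 by edgeR, 95% interval -0.51 to 0.37). Across the 23 hearts Timp1 and Mmp2 had a Pearson r of 0.11 (permutation p = 0.633, adjusted 0.633 over 21 pairs) and a Spearman rho of 0.06 (p = 0.796, adjusted 0.796); without the 2 libraries farthest from the median of Timp1, r was 0.14.

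Lox, which starts the crosslinking of collagen, had low counts, from 2 in CD-CR5 to 64 in CD-HR1. It had 0.875 to 2.49 CPM in HD-HR (median 1.73) and 1.02 to 5.88 in CD-HR (median 2.36). The HD-CR hearts had 1.51, 1.07, 0.739, 0.621 and 0.929 CPM, and CD-CR hearts 0.240 to 4.51 (median 1.67). HD-CR thus had the lowest mean, 0.974 ± 0.346 CPM (SD, n = 5), and CD-HR the highest, 2.83 ± 2.03 (n = 6), with overlapping ranges. The averaged recipient difference was log2 -0.69 ± 0.35 (adjusted p = 0.195 by edgeR).

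**Figure D2:**
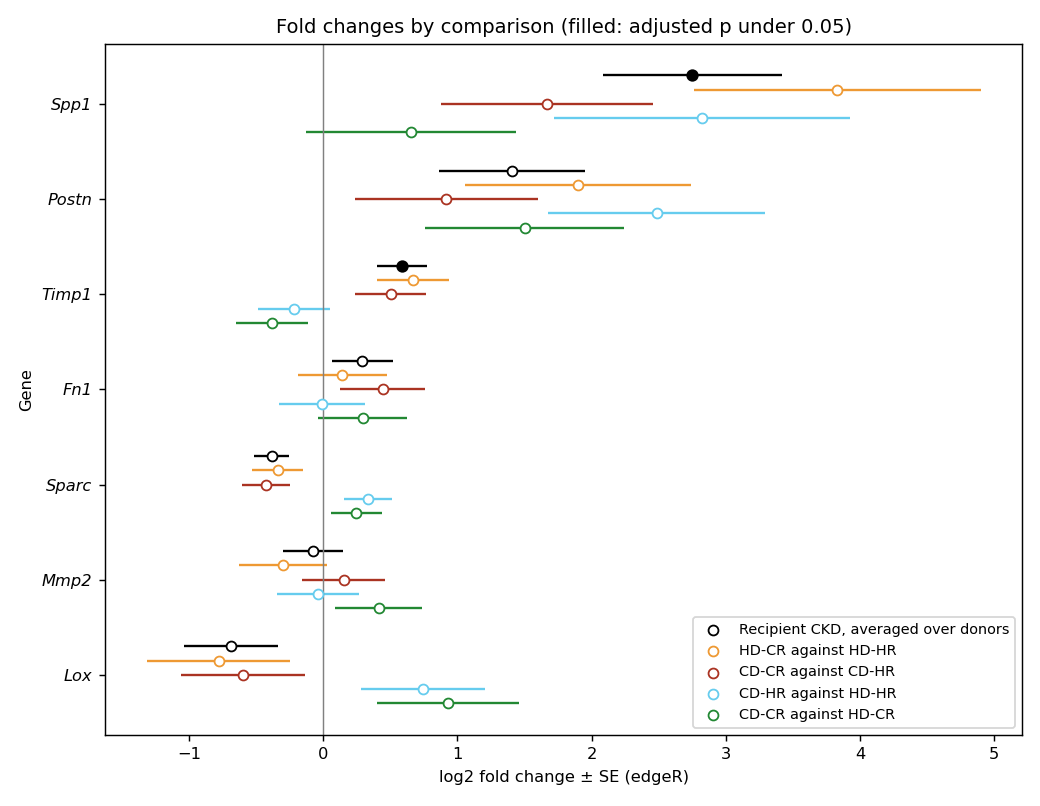
Fitted log2 fold change of each gene with its standard error in 5 comparisons; filled points passed an adjusted p of 0.05 and open points did not. Only Spp1 and Timp1 have a filled point, both in the recipient comparison averaged over donors, and the donor comparisons of Postn (2.48 in healthy and 1.50 in CKD recipients) carry wide errors.

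The recipient comparison was nearly confounded with the first 2 digits of the animal code in the file names, whose meaning no source used here gives. All 12 healthy recipients carry 13, and of the 11 CKD recipients 9 carry 12 and 2 (HD-CR5 and CD-CR5) carry 13. Those 2 had 20.2 and 2.04 CPM of Spp1 and 5.58 and 4.20 CPM of Postn, each above the HD-HR range. The CD-HR rats, which also carry 13, were not all lower. For Spp1, CD-CR5 lay below CD-HR1, CD-HR2 and CD-HR5 (10.4, 2.39 and 4.63 CPM), while HD-CR5 lay above every healthy recipient. For Postn, both HD-CR5 and CD-CR5 lay below CD-HR1, CD-HR2 and CD-HR5 (34.3, 10.9 and 14.7 CPM). Timp1 was 20.3 CPM in HD-CR5 and 15.6 in CD-CR5, above 11 and 10 of the 12 healthy recipients. Within code 13 the averaged recipient difference was log2 2.45 ± 0.94 for Spp1 (adjusted p = 0.207 by edgeR), 0.68 ± 0.32 for Timp1 (adjusted p = 0.279), -0.38 ± 0.24 for Sparc (adjusted p = 0.411) and 0.13 ± 1.07 for Postn (adjusted p = 0.969). With the code as a covariate these were 3.64 ± 1.01 (adjusted p = 0.0893), 0.65 ± 0.34 (adjusted p = 0.301), -0.36 ± 0.25 (adjusted p = 0.445) and 0.22 ± 1.04 (adjusted p = 0.935). None of the 7 was called in either fit. Postn was near 0 in both, and Fn1 was -0.26 and -0.23. Lox was -2.15 ± 0.80 within code 13 (adjusted p = 0.187) and -1.82 ± 0.79 with the covariate (adjusted p = 0.217), and Mmp2 was -0.69 ± 0.42 (adjusted p = 0.404) and -0.72 ± 0.42 (adjusted p = 0.354), all farther from 0 than without the code. The averages within code 13 join 1 CKD recipient for each kind of donor kidney, and these differed: Spp1 was 5.53 with a healthy kidney and -0.63 with a CKD kidney, Postn 1.59 and -1.34, and Sparc 0.08 and -0.84. With 2 CKD recipients under code 13 the code and the recipient's disease can hardly be told apart.

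Healthy recipients of a CKD kidney spread widely in Postn and Spp1, with no called difference. None of the 7 genes was called for CD-HR against HD-HR, where 0% of all genes were called; 879 genes (7.6%) had an unadjusted p under 0.05, among them Postn and Spp1, and DESeq2 called 12 genes, none of the 7, with no adjusted p for Spp1 and Lox. Postn had a log2 difference of 2.48 ± 0.81 (adjusted p = 0.484 by edgeR) and Spp1 of 2.82 ± 1.11 (adjusted p = 0.55). The group was split: CD-HR1, CD-HR2 and CD-HR5 had 34.3, 10.9 and 14.7 CPM of Postn and 10.4, 2.39 and 4.63 of Spp1, all above the HD-HR range, whereas CD-HR3, CD-HR4 and CD-HR6 had 1.64, 1.83 and 1.27 CPM of Postn, inside it, and 0.613, 0.440 and 0.808 of Spp1, of which only CD-HR6 was above it. Without CD-HR1 the donor difference of Postn was log2 1.57 and that of Spp1 1.80. The other 5 genes had log2 differences of -0.22 (Timp1) to 0.75 (Lox), with adjusted p from 0.694 to 0.999. For Fn1 the 95% interval was -0.63 to 0.62 and for Mmp2 -0.64 to 0.57.

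In CKD recipients none of the 7 genes was called between donor kidneys, and 3 genes (0.0259%) were called over all. The fitted difference of CD-CR against HD-CR was positive for 6 of the 7, with Postn at log2 1.50 ± 0.74 (95% interval 0.05 to 2.95, adjusted p = 0.613 by edgeR), Lox at 0.93 ± 0.53 (adjusted p = 0.65) and Spp1 at 0.66 ± 0.78 (adjusted p = 0.846), and negative for Timp1 at -0.38 ± 0.27 (adjusted p = 0.715). For Postn the unadjusted p by edgeR was 0.056, so its interval, a normal approximation, should not be read as excluding 0. Among all genes 54.5% were positive. Within the 9 libraries of code 12 the values were 1.63 ± 0.69 for Postn (adjusted p = 0.714), 1.88 ± 0.82 for Spp1 (adjusted p = 0.73), 1.12 ± 0.45 for Lox and 0.42 ± 0.17 for Sparc (adjusted p = 0.581 for both) and -0.39 ± 0.29 for Timp1 (adjusted p = 0.871). Single libraries moved the Spp1 value widely, to 1.68 without HD-CR5, 0.33 without CD-CR1 and 0.087 without CD-CR6.

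Whether recipient disease acted differently with a healthy and a CKD donor kidney was tested by the interaction, which called 1 gene over all (0.00864%) and none of the 7, each with an adjusted p of 1. The largest interaction among the 7 was that of Spp1, at log2 -2.17 ± 1.37, with a 95% interval from -4.86 to 0.53. For Postn it was -0.98 ± 1.08. The intervals of Spp1 and Postn (-3.11 to 1.14) hold differences of several fold between the responses, whereas those of Sparc (-0.60 to 0.42), Timp1 (-0.91 to 0.58) and Fn1 (-0.60 to 1.202) were narrower.

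**Figure D3:**
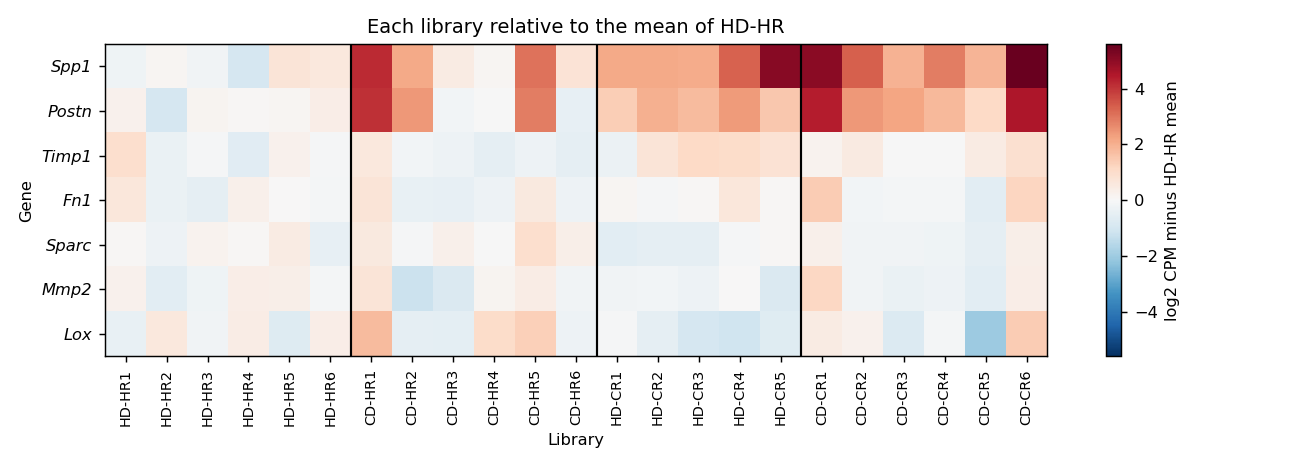
Log2 CPM of each gene in each of the 23 libraries, minus the mean of the 6 HD-HR libraries; red is higher, blue is lower, and vertical lines part the groups. CD-CR1, CD-CR6, CD-HR1 and CD-HR5 are red for most genes, and Spp1 and Postn are red in every CKD recipient.

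A few hearts were high for most of the genes at once. CD-HR1 exceeded the highest HD-HR value for 6 of the 7 genes, Timp1 being the exception, and CD-HR5 for 5. CD-HR5 also had the smallest library total (7391929 counts) and the largest share in the 10 most abundant genes (68.6%). Its share in no feature was the largest too (21.5%, of a total that leaves out non-unique alignments), besides its high ratio of non-unique alignments. The part of these measures in the values of CD-HR5 was not tested. CD-CR1, CD-CR6 and HD-CR4 exceeded the highest HD-HR value for 4 of 7. CD-CR5 was above the HD-HR range for Spp1 and Postn and below it for 3 other genes. The share of all genes outside the HD-HR range was not computed for single libraries. These counts therefore cannot tell a trait of the 7 genes from a trait of the library as a whole. Relative to the HD-HR mean, CD-CR6 stood at log2 5.51 for Spp1 and 4.53 for Postn, CD-CR1 at 5.07 and 4.40, and CD-HR1 at 4.16 and 4.08. CD-CR1 also had the smallest share of counts in its 10 most abundant genes, 48.8%, and stood farthest from the centre on the principal components. Over the 23 libraries that share had a Pearson r of -0.40 with log2 Mmp2, -0.27 with log2 Lox and -0.19 with log2 Fn1. The r was 0.03 with log2 Postn, 0.05 with log2 Sparc, 0.20 with log2 Spp1 and 0.23 with log2 Timp1. The part of that share in the values of CD-CR1 was not tested.

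The hearts with much Postn were those with much Spp1. Over the 23 libraries log2 CPM of these genes had a Pearson r of 0.88 and a Spearman rho of 0.83 (permutation p = 1e-05 for both, the smallest that the resamples can give; adjusted p = 0.00021 over 21 pairs). It was 0.81 without the 2 libraries farthest from the median of Postn, 0.91 among the 12 healthy recipients and 0.71 among the 11 CKD recipients, so it was also present within each kind of recipient. Among the 11567 other genes tested, Spp1 was the 8th in correlation with Postn, and Postn was the 18th in correlation with Spp1. HD-CR5 departed from the rest, with 20.2 CPM of Spp1 and 5.58 of Postn.

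**Figure D4:**
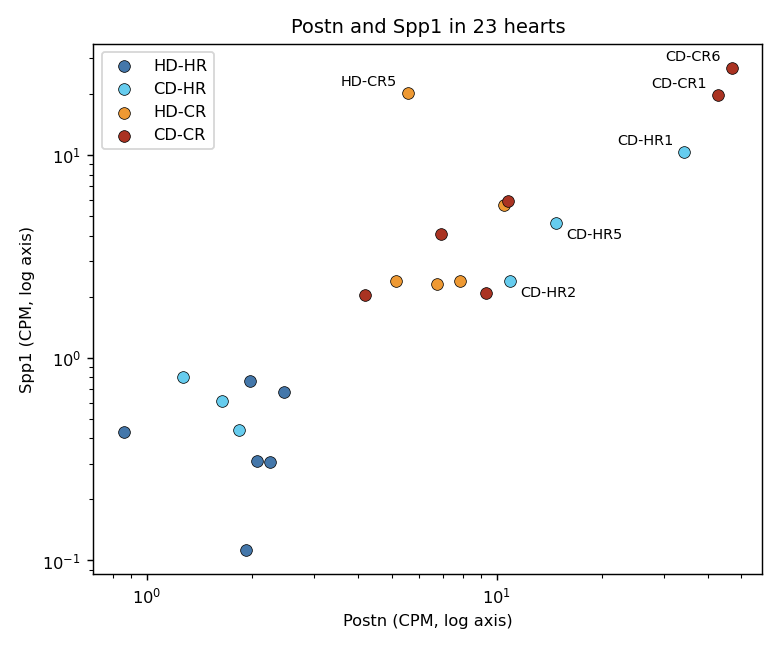
Spp1 against Postn in CPM on log axes, 1 point per rat, coloured by group. The HD-HR rats and 3 of the CD-HR rats sit at the lower left, CD-HR1, CD-CR1 and CD-CR6 at the upper right, and HD-CR5 lies above the others at its Postn level.

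Fn1 and Mmp2 formed the other close pair, with a Pearson r of 0.79 (permutation p = 2e-05, adjusted 0.00021) and a Spearman rho of 0.73 (p = 0.0001, adjusted 0.00105). Their r was 0.71 without the 2 libraries farthest from the median of Fn1, 0.81 in healthy and 0.86 in CKD recipients. Fn1 with Postn had an r of 0.69 (permutation p = 0.00023, adjusted 0.00161; rho 0.55, adjusted 0.0423), which was 0.47 without the 2 farthest libraries. Of the 21 pairs, 6 passed the correction for both coefficients, and 19 had an r above 0. The exceptions to the latter were Timp1 with Lox (-0.25) and Timp1 with Sparc (-0.12). The permutations ran over all 23 libraries regardless of group, so differences between groups also enter these p-values. Timp1 with Spp1, 1 of the 6, had an r of 0.53, against 0.30 in healthy and 0.28 in CKD recipients. The r of that pair was 0.46 for deviations from the group means. Fn1 with Spp1, also 1 of the 6, had an r of 0.59, which was 0.33 without the 2 libraries farthest from the median of Fn1. Taken as deviations from the group means, 20 of 21 pairs were positive and 13 were above 0.5. Among all pairs of the 11568 genes, 49.8% had an r above 0 and 5.28% an r above 0.5, against 6 of the 21 pairs above 0.5 here. Of deviations over all pairs, 49.9% were above 0 and 4.88% above 0.5. Postn with Sparc, at an r of 0.22, ranked 3011 among the 11567 genes compared with Postn.

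The 2 genes outside the set whose levels followed it most closely were ENSRNOG00000030183 and ENSRNOG00000021220. Their log2 CPM had a Pearson r of 0.90 and 0.89 with the mean of the 7 standardised genes over 23 libraries, the highest among 11025 genes averaging 1 CPM or more. The files do not pair these identifiers with names.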

How the data were processed

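RNA of the heart apex was isolated with Trizol, poly(A)-selected and made into directional libraries, per the labels' protocols. The deposited values are the authors' integer counts of reads by gene, in 1 file for each rat; STAR 2.4.2a, Picard and HTSeq 0.6.1p1 with build Rnor_5.0 are named, per the submitters' processing notes. The annotation release, the strand setting and any duplicate removal are given by no source used here, and overlapping genes may share reads. HTSeq's summary lines were left out of the counts. Reads in no feature were 10.6 to 21.5% of the reads in genes, in no feature or ambiguous. That total leaves out non-unique alignments. Counts may carry PCR duplicates and have no molecular identifiers, and tests rest on the variation among rats.

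Groups and replicate numbers came from the titles. No pair of libraries in a group agreed within sampling noise (lowest chi-square per degree of freedom 8.38 over 55 pairs). Genes were filtered with filterByExpr, scaled by TMM, and compared by the robust quasi-likelihood test of edgeR 4.0.16 (R 4.3.3; glmQLFit, glmQLFTest), with Benjamini-Hochberg adjustment over all genes; standard errors are the log2 fold change over the square root of F, and 95% intervals are normal approximations from them. Every adjusted p without another tool is edgeR's. Correlations used log2 CPM with a prior count of 2 and two-sided permutation tests with 100000 resamples over all libraries regardless of group. Alternatives were DESeq2 1.42.0, limma-voom 3.58.1, median-ratio (RLE) scaling, no filter, the 2 groups alone, the animal code as a covariate or held fixed, the share of the 10 most abundant genes, a replicate block and each library left out. The code was tested on simulated counts. Promoter motifs were chosen after the sequences had been seen, and a wider search with TGNGGT was replaced by TGTGGT and TGCGGT after its matches were seen.

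The members, lists and tests were chosen with earlier results of these data known. All 7 members were to be named, with the 2 genes most like their mean. The RefSeq table (GRCr8) holds no Ensembl rat identifiers, so 0 of the genes in 17 lists of other matrix genes and cell type markers could be matched, none was tested, and neither the tissue nor the cell types present were checked against markers.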

Additional observations from a re-analysis of the deposited data

Results flagged for a closer look

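Of 28 sets of values (7 genes in 4 groups), 4 held a library set apart from its group by Dixon's test, which flags about 1 in 20 groups by chance if values are normally distributed. CPM can be skewed, and the 7 genes share the same libraries, so that rate is only a rough guide here. Fn1 was 104.2 CPM in HD-CR4, against at most 71.8 in the other HD-CR hearts. Postn was 0.858 CPM in HD-HR2, below the next lowest HD-HR value of 1.91. Timp1 was 17.5 CPM in CD-HR1, against at most 10.4 in the other CD-HR hearts. Spp1 was 20.2 CPM in HD-CR5, against at most 5.69 in the other HD-CR hearts; without HD-CR5 the averaged recipient difference of Spp1 was log2 2.24 (adjusted p = 0.0366 by edgeR).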

How the results depend on the processing

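Of 389 values of the 7 genes under alternatives other than leaving out 1 library, 358 kept their direction and side of the threshold. Another 8 lost the call, 7 gained it and 16 changed sign. Only Spp1 and Timp1 in the averaged recipient comparison had a call to lose, and the 8 losses were theirs (3 and 5). Most of the 389 values belong to results that were not called to begin with. Of all 37 sign changes, leaving out 1 library included, none involved a called value. In the averaged recipient comparison 2 genes were called, against 4 by DESeq2, 1 with no filter, 1 with the replicate block, 1 without the 3 libraries that stand apart and 0 with the code as a covariate or within code 13, and 1 to 3 without 1 library. For HD-CR against HD-HR 0 were called, against 2 in the 2 groups alone and 1 by DESeq2.

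The numbers of all genes called moved more. DESeq2 gave 245 (HD-CR against HD-HR), 437 (CD-CR against CD-HR), 12 (CD-HR against HD-HR), 27 (CD-CR against HD-CR) and 2 (interaction), where edgeR gave 71, 181, 0, 3 and 1. The 2 groups alone gave 306, 32 and 7 (CD-CR against HD-CR), the share of the 10 most abundant genes 47, 334, 5 (CD-CR against HD-CR) and 2 (interaction), limma-voom 44 (HD-CR against HD-HR), and the block 0 for the interaction. The averaged recipient comparison, 1483 genes, gave 6 with the code as a covariate, 0 within code 13 and 575 without the 3 libraries; the simple recipient comparisons gave 3 and 0 with the covariate, 10 and 0 within code 13, and 16 and 67 without the 3 libraries, and the interaction 2. Without 1 library the ranges were 860 (HD-CR4) to 1742 for the averaged comparison, with 900 without CD-HR4, 5 (HD-CR5) to 89 for HD-CR against HD-HR, 48 (CD-HR4) to 359 (CD-HR1) for CD-CR against CD-HR, 0 to 1 (CD-HR6) for CD-HR against HD-HR, 2 to 18 (HD-CR2) for CD-CR against HD-CR and 0 to 2 for the interaction.

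Sign changes, in log2: with the code as a covariate Fn1 was -0.23 (averaged), -0.34 (HD-CR against HD-HR) and -0.11 (CD-CR against CD-HR), and Mmp2 -0.51 and Postn -0.35 (CD-CR against CD-HR). Within code 13 Fn1 was -0.26 (averaged), and against CD-HR the lone CD-CR library gave -0.61 for Fn1, -0.56 for Mmp2, -1.34 for Postn and -0.63 for Spp1; Sparc was 0.076 for the lone HD-CR library. A lone library is assumed to vary like the other groups. Without the 3 libraries Mmp2 was -0.18 (CD-CR against CD-HR), and for CD-HR against HD-HR Fn1 was 0.14, Mmp2 0.013 and Timp1 0.039; the share of the 10 most abundant genes gave Fn1 0.027. Without 1 library the ranges were, for CD-HR against HD-HR, -0.19 to 0.14 (Fn1), -0.25 to 0.12 (Mmp2) and -0.44 to 0.036 (Timp1); for Mmp2 -0.23 to 0.035 (averaged) and -0.17 to 0.37 (CD-CR against CD-HR); for Fn1 -0.00062 to 0.29 (HD-CR against HD-HR) and -0.00053 to 0.44 (CD-CR against HD-CR); and for the interaction -0.0031 to 0.48 (Fn1), -0.27 to 0.55 (Lox), -0.19 to 0.054 (Sparc) and -0.42 to 0.053 (Timp1). The cause of these moves was not tested.

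Rats with the same replicate number in different groups were hardly more alike than others. Their correlation of deviations averaged 0.015, against -0.003 for other pairs. Of the 33 same-numbered pairs 12 were above 0.1 and the lowest was -0.32, and 6 of 23 libraries correlated best with their own number. These values cannot show whether the numbers pair the rats by design. DESeq2 gave no adjusted p for Spp1 and Lox in CD-HR against HD-HR, and Spp1 did not pass the filter in those 2 groups alone. Depth limits Spp1 in HD-HR (1 to 8 counts a library) and Lox.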
